A study of Mus musculus with 12 samples.

Results

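Transcripts of 8 T-box transcription factors, Tbx1, Tbx2, Tbx3, Tbx4, Tbx5, Tbx15, Tbx18 and Tbx20, were followed in mouse embryonic fibroblasts (MEFs) over genotype and time in culture. The members were chosen by name, as every probe whose accession matched one of these symbols, which gave 10 of the 39429 probes on the array and 8 of the 19507 genes tested. Tbx20 had 3 probes and the other members had 1 each. All 8 members passed the filter on dim probes, which asked for a signal clear of background in every array of some group, and Tbx20 passed it through wild-type early cultures alone.

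The fibroblasts are primary cells grown out of E12.5 (embryonic day) embryos, from wild-type (WT) mice or from mice labelled as Itpr2 knock-out (KO). The Itpr2 product is the type 2 inositol trisphosphate receptor, which lets calcium out of the endoplasmic reticulum. RNA was taken after 3 passages (early) or 5 passages (late), and the 4 groups, WT early, KO early, WT late and KO late, held 3 arrays each. The series' design text says that the fibroblasts of each genotype came from 3 independent animals, and the labels give neither strain nor sex. MEFs are a mixture of mesenchymal cells from much of the embryo body, and with RNA from whole cultures, fewer cells of a type and less RNA per cell cannot be told apart.

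T-box factors bind DNA through a shared domain, the T-box, and set regional identity in the embryo. Tbx2 and Tbx3 act mainly as repressors, and in cultured fibroblasts they are known for holding down the cell cycle inhibitor locus Cdkn2a and so delaying senescence. Tbx5 is an activator of the forelimb bud and the heart, Tbx4 of the hindlimb bud and the lung. Tbx15 and Tbx18 pattern skeletal and dermal mesenchyme, Tbx18 and Tbx20 the epicardium and the heart, and Tbx1 the pharyngeal arches.

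Promoter sequences are shown for Tbx4 and Tbx20, the members of widest spread between cultures of a single group, and for Tbx18, on which 1 array stood apart, with a spot in high local background. Sequences for 4 of the 8 members, Tbx1, Tbx4, Tbx18 and Tbx20, were matched in a RefSeq promoter table on build GRCm38.p6. Each window is the 250 bases before the annotated start site, printed 5′ to 3′ on the strand of the gene, with capitals for matches, on either strand, to 4 motifs: AGGTGT, the core of the T-box half-site, TATAAA, the TATA box, CCAAT, the CCAAT box, and GGGCGG, the GC box. The Tbx4 window lies at chr11:85896515-85896764, plus strand, the Tbx18 window at chr9:87731261-87731510, minus strand, and the Tbx20 window at chr9:24774304-24774553, minus strand.
Tbx4: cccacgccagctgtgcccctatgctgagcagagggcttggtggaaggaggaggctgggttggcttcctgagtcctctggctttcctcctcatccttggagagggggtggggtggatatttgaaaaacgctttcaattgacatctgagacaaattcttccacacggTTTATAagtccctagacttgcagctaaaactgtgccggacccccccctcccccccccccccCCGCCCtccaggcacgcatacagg
Tbx18: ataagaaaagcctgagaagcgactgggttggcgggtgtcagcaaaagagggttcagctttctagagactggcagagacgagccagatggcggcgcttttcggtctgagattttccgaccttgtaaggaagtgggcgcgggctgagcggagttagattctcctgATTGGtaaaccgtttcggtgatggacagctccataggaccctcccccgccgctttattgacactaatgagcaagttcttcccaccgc
Tbx20: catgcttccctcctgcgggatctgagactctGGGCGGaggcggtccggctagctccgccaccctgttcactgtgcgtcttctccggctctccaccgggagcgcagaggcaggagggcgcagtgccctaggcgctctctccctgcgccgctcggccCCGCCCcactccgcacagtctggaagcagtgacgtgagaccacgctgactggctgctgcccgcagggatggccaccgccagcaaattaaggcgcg

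The Tbx4 window held 1 match to the TATA box, read on the opposite strand from -85 to -80 relative to the start site, and 1 to the GC box from -24 to -19. The Tbx18 window held 1 match to the CCAAT box, on the opposite strand, from -87 to -83. The Tbx20 window held 2 matches to the GC box and was GC-rich, with 68.8% G or C and 22 CpG dinucleotides, against 54.0% and 15 for Tbx18 and 58.4% and 6 for Tbx4. None of these 3 windows held AGGTGT, and 1 of the 2 windows of Tbx1, which has 2 annotated starts in the table, held it once. Of all 32851 promoter windows in the table, 11.8% held AGGTGT, 12.4% TATAAA, 33.8% CCAAT and 32.7% GGGCGG, on either strand, so that each of these matches is common, and the median window had 52.4% G or C and 6 CpG. A match describes these letters alone.

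Levels are given as log2 of the background-subtracted signal relative to the 75th percentile of all spots on the same array, so that 0 equals that percentile and a difference of 1 is a doubling. Differences were tested with limma, a linear model that pools information on spread across genes, with Benjamini-Hochberg adjustment over all 19507 genes. A difference counts as called, and as a change, at an adjusted p under 0.05. Values of different probes depend on the probe and were not set against each other. Per array, 59.14% to 67.47% of probes had signal above background, and replicates of a group correlated at 0.985 to 0.997. The single Itpr2 probe kept was not lower in KO arrays, with group means of 0.95 and 1.35 at early passage and of 1.61 and 1.76 at late passage, WT first. The sources used here do not say whether it lies inside the deletion, so it does not check the labels, and KO stands here for arrays labelled so. Replicate number, slide and scan time coincided, with all 4 groups on each slide. Each group sat at the same position on all 3 slides, so that position and group cannot be told apart.

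**Figure D1:**
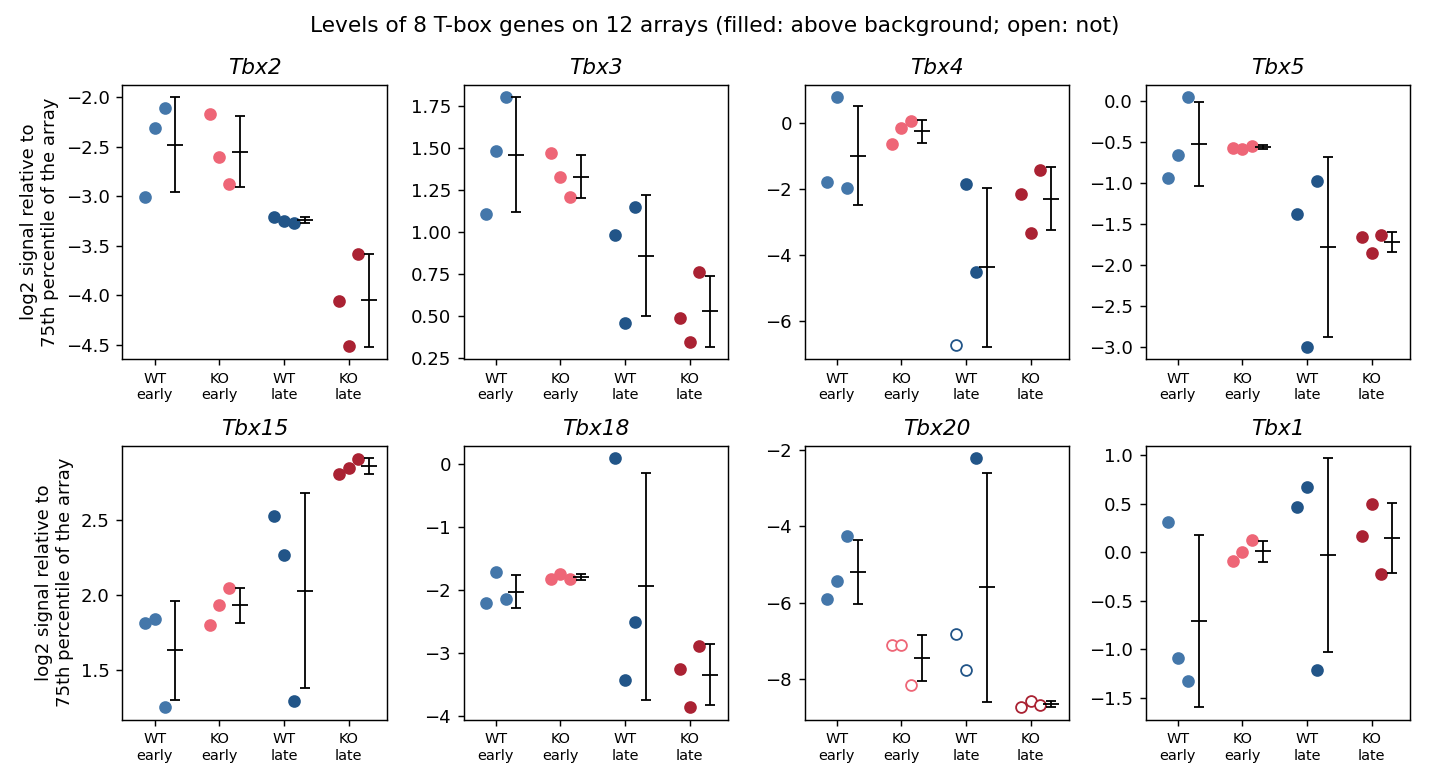
Level of each member on the 12 arrays, as log2 signal relative to the 75th percentile of the array (vertical axis, a different range in each panel), by group; filled points were above background, open points were not, and the bar beside each group is the mean ± SD of 3 arrays. All 6 late values of Tbx2 and of Tbx5 lie below all 6 early values, the KO late values of Tbx15 are the 3 highest, and the WT late arrays are spread widely for Tbx4, Tbx18 and Tbx20.

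In the main analysis members were called between passages of KO cultures and in no other comparison. Over all genes too, calls were more frequent between passages (18.9% in KO, 10.6% in WT) than between genotypes (7.83% at late and 0.0359% at early passage). Between passages of KO cultures, Tbx2 and Tbx3 were lower and Tbx15 was higher at late passage. Thus 3 of the 8 members were called, 2 lower and 1 higher, where 18.9% of all genes were called, 9.95% higher and 9% lower. Xist, a transcript made in female cells, was above background on 0 of 3 KO early and 2 of 3 KO late arrays. The KO passages are therefore not shown to hold the same animals, and passage and animal cannot be told apart there. In WT cultures 0 of 8 members were called by limma between passages, where 10.6% of all genes were. An unadjusted p under 0.05, in either direction, was reached by 4 of the 8, against 28.4% of all genes. These 4, Tbx2, Tbx3, Tbx4 and Tbx5, all had a negative difference. In KO cultures Tbx20 was below background on all 6 arrays, and of the other 7 members the passages did not overlap for 6, all but Tbx1, against 51.9% of all genes. They did not overlap for 2, Tbx2 and Tbx5, in WT cultures, against 27.7%. The median difference of the 8 members was -1.18 in KO cultures, against -0.05 over all genes, and -0.50 in WT cultures, against 0.00 over all genes. Each median is the midpoint of Tbx20 and another member, Tbx5 at -1.16 in KO and Tbx3 at -0.60 in WT cultures. The medians thus rest on Tbx20, which passed the filter through WT early arrays alone, and nothing is read from them. The WT median also includes Tbx18 with its spot of high local background. Both passage comparisons used their own control arrays.

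Tbx2, a repressor, had the largest called difference. Its level was -3.01, -2.31 and -2.11 in WT early replicates 1 to 3 and -2.17, -2.60 and -2.88 in KO early replicates. It was -3.21, -3.25 and -3.27 in WT late replicates and -4.06, -4.51 and -3.58 in KO late replicates. The early groups overlapped, WT late lay below every early array within a span (SD 0.027) smaller than that of all but 2.74% of genes, and KO late lay below WT late without overlap. In KO cultures the change with passage was -1.50 ± 0.28 (SE), 2.84-fold lower, with an adjusted p of 0.0061. Within slides 1, 2 and 3 it was -1.89, -1.92 and -0.71. In WT cultures it was -0.77 ± 0.28 with an adjusted p of 0.11, and within slides -0.20, -0.94 and -1.16. The Tbx2 call in KO cultures held under all 22 alternatives of processing and sample choice, with adjusted p from 0.0038 to 0.027.

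Tbx3, the closest relative of Tbx2 and likewise a repressor, followed the same order of groups. Its level was 1.11, 1.48 and 1.80 in WT early and 1.47, 1.33 and 1.21 in KO early replicates. It was 0.98, 0.46 and 1.15 in WT late and 0.49, 0.35 and 0.76 in KO late replicates. Every KO late array lay below every early array, and WT late overlapped both WT early and KO late. The difference with passage was -0.80 ± 0.21 in KO cultures, 1.74-fold lower, with an adjusted p of 0.026, and -0.60 ± 0.21 in WT cultures with an adjusted p of 0.099. Within slides the KO difference was -0.98, -0.98 and -0.45, and the WT difference -0.13, -1.02 and -0.64. The call was lost, with an adjusted p from 0.072 to 0.095, when KO early replicate 1 or 2 or KO late replicate 1 or 2 was left out, and with an adjusted p of 0.06 without the filter on dim probes and 0.087 with the Xist level as a covariate.

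Tbx5, the forelimb and heart activator, was lower on all 6 late arrays than on any early array, without a call in either genotype. Its level was -0.94, -0.66 and 0.05 in WT early and -0.57, -0.58 and -0.54 in KO early replicates. It was -1.38, -3.00 and -0.97 in WT late and -1.66, -1.85 and -1.64 in KO late replicates. The KO groups were tight and separate, while WT late replicate 2 stood far below the other arrays. The difference was -1.16 ± 0.44 in KO cultures (2.23-fold lower, adjusted p 0.091) and -1.26 ± 0.44 in WT cultures (2.4-fold lower, adjusted p 0.093), the latter at -0.44, -2.34 and -1.02 within slides 1 to 3. The spread entering both tests was that of all 4 groups, of which WT late had an SD of 1.1 and KO early one of 0.022. Left without WT late replicate 2, the KO difference was called. On the arrays of the 2 KO groups alone Tbx5 was called too (adjusted p 8.2e-04), in a fit that called 27.7% of all genes.

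Tbx4, the hindlimb and lung activator, had the widest spread within groups among the 7 members with signal in all groups. Its level was -1.79, 0.77 and -1.97 in WT early and -0.63, -0.16 and 0.05 in KO early replicates. It was -6.73, -1.86 and -4.52 in WT late and -2.15, -3.32 and -1.44 in KO late replicates. WT late replicate 1 was not above background, WT early replicate 2 was the highest of all 12 arrays, and all KO late arrays lay below all KO early arrays. The difference with passage was -3.37 ± 1.1 in WT cultures with an adjusted p of 0.079 and -2.06 ± 1.1 in KO cultures with an adjusted p of 0.22. The WT difference was -4.94, -2.63 and -2.55 within slides. It was -2.20 (adjusted p 0.2) without WT late replicate 1 and -2.19 (adjusted p 0.16) in a limma fit to the authors' deposited table. With the Xist level as a covariate, or without WT late replicate 2, Tbx4 was the 1 member called in WT cultures.

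Tbx15, a factor of skeletal and dermal mesenchyme, was the member called higher at late passage, in KO cultures. Its level was 1.81, 1.84 and 1.25 in WT early and 1.80, 1.93 and 2.05 in KO early replicates. It was 2.53, 2.27 and 1.29 in WT late and 2.81, 2.85 and 2.91 in KO late replicates. The 3 KO late arrays were the highest of the 12, and WT late replicate 3 stood beside WT early replicate 3. In KO cultures the change was 0.93 ± 0.28, 1.91-fold higher, with an adjusted p of 0.04, and it was 1.00, 0.92 and 0.87 on slides 1, 2 and 3. In WT cultures the difference was 0.39 ± 0.28 with an adjusted p of 0.37. The KO call was close to the threshold and was lost in 8 of 22 alternatives, with adjusted p up to 0.13. These were leaving out any 1 of the 6 KO arrays, testing without the filter on dim probes, and taking the Xist level as a covariate.

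Tbx18, a factor of epicardium and mesenchyme, had a level of -2.21, -1.72 and -2.15 in WT early and -1.82, -1.74 and -1.82 in KO early replicates. It was 0.09, -3.42 and -2.50 in WT late and -3.26, -3.86 and -2.89 in KO late replicates. Every KO late array lay below every early array, and WT late replicate 1 stood above all 11 others. The spot on that array was itself unusual. Its median intensity was 841 and the local background around it was 728, where the background of the Tbx18 spot on the other 11 arrays was 28 to 33, and the scanner software called it a background outlier, the only member spot so called. Spot minus local background was 113 on that array and 42 to 165 on the others.

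**Figure D2:**
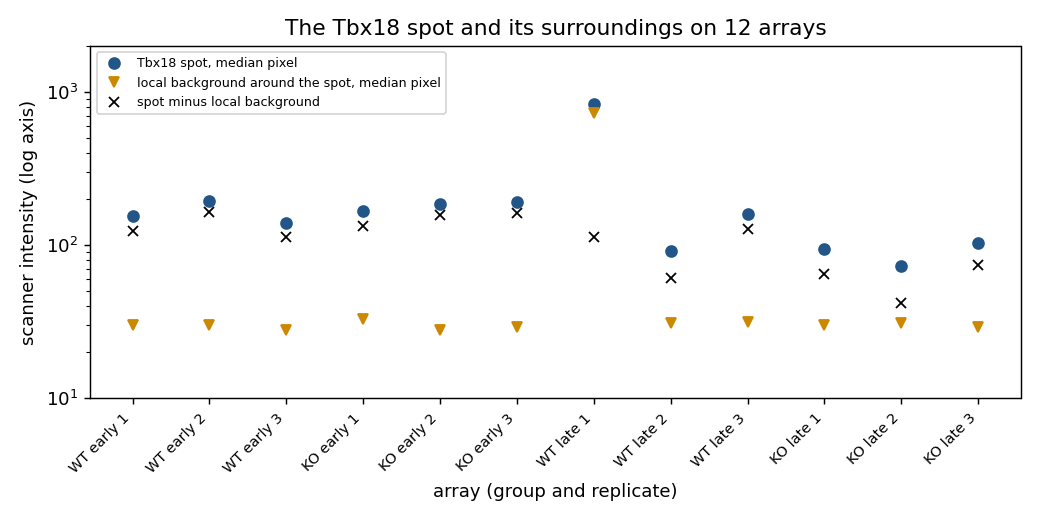
Median pixel intensity of the Tbx18 spot (circles), of the local background around it (triangles) and their difference (crosses) on each of the 12 arrays, on a log axis in scanner units. On WT late replicate 1 spot and background are both high, at 841 and 728, and their difference of 113 lies within the range of 42 to 165 of the other arrays.

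With all arrays, the difference of Tbx18 with passage was -1.54 ± 0.69 in KO cultures (adjusted p 0.15) and 0.08 ± 0.69 in WT cultures (adjusted p 0.95). With spots of outlying local background left out, an alternative chosen after this value had been seen, WT late kept 2 arrays with a mean of -2.96. The KO change was then -1.54 ± 0.28, 2.92-fold lower, with an adjusted p of 0.0074, and was called. The WT difference turned to -0.93 ± 0.32 with an adjusted p of 0.094. With those spots left out, 4 of the 8 members were called between passages of KO cultures, where 18.6% of all genes were.

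Tbx20, a heart factor, was near the limit of detection. Its brightest probe gave -5.89, -5.42 and -4.25 in WT early and -7.11, -7.10 and -8.16 in KO early replicates. It gave -6.82, -7.76 and -2.21 in WT late and -8.73, -8.57 and -8.68 in KO late replicates. It was above background on the 3 WT early arrays and on WT late replicate 3, and on 0 of the 6 KO arrays. On WT late replicate 3 the processed signal was 193, against 31.1 or less on the other 11 arrays, and the other 2 probes of Tbx20 were also above background there, at -4.79 and -4.45. Those probes were above background on 0 and 1 of the other 11 arrays, the latter being WT late replicate 2. Since Tbx20 passed the filter through WT early arrays alone, the filter favoured a higher level there, and no fold against that group is given. Its log2 differences from WT early arrays are in the plot of differences between passages and among the alternatives of processing. Between WT passages Tbx20 was called when WT late replicate 3 was left out. Nothing is read from these differences or from that call. At late passage the WT mean rests on replicate 3, the 1 array of 6 above background, and no fold is given there or between the KO groups.

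Tbx1, the pharyngeal arch factor, showed no called difference. Its level was 0.31, -1.09 and -1.33 in WT early and -0.09, 0.00 and 0.13 in KO early replicates. It was 0.47, 0.67 and -1.22 in WT late and 0.17, 0.50 and -0.22 in KO late replicates. The 3 low arrays were all WT, 2 early and 1 late, and the KO arrays lay within a span of 0.11 (SD) at early and 0.36 at late passage. The difference with passage was 0.68 ± 0.52 in WT (adjusted p 0.42) and 0.14 ± 0.52 in KO cultures (adjusted p 0.88), and the intervals of the fit ran from -0.47 to 1.82 and from -1.01 to 1.28.

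**Figure D3:**
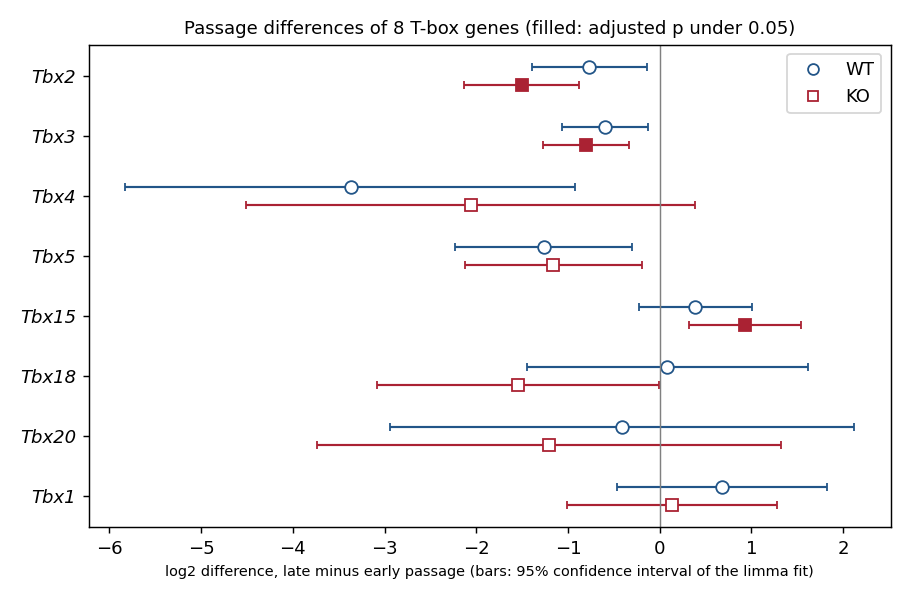
Difference between late and early passage for each member on the log2 scale (horizontal axis) in WT (circles) and KO cultures (squares), with the 95% confidence interval of the limma fit; filled symbols have an adjusted p under 0.05. Tbx2, Tbx3 and Tbx15 in KO cultures are filled, at -1.50, -0.80 and 0.93, and the WT and KO intervals overlap for every member.

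The difference between the passage responses of KO and WT cultures was tested directly, and 0 of 8 members were called by limma, where 0.0871% of all genes were; 0 members had an unadjusted p under 0.05, against 13.9% of all genes. The lowest adjusted p was that of Tbx2, at 0.43 for a difference of -0.74 ± 0.40, with an interval from -1.62 to 0.14. For Tbx15 it was 0.54 ± 0.39 and for Tbx3 -0.20 ± 0.30. The calls in KO cultures and their absence in WT cultures are thus not shown to differ.

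Between genotypes, 0 members were called at either passage. At early passage 0 of 8 members were called between KO and WT by limma, where 0.0359% of all genes were, and 0 had an unadjusted p under 0.05, against 5.99% of all genes. The groups overlapped for every member but Tbx20, which the filter had kept through WT early arrays, so that nothing is read from it beside the 9.54% of all genes without overlap. The intervals at early passage excluded differences beyond -0.69 and 0.55 for Tbx2, beyond -0.60 and 0.34 for Tbx3 and beyond -0.32 and 0.91 for Tbx15, while those of Tbx4 ran from -1.70 to 3.20.

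At late passage 0 of 8 members were called between KO and WT by limma, where 7.83% of all genes were, and 3, Tbx2, Tbx15 and Tbx20, had an unadjusted p under 0.05, against 24.9% of all genes. The same 3 did not overlap between the groups, against 39.3% of all genes, and Tbx20 was above background on 1 of those 6 arrays. Tbx2 was 1.75-fold lower in KO late arrays, at -0.81 ± 0.28 with an adjusted p of 0.1. Tbx15 was 1.78-fold higher, at 0.83 ± 0.28 with an adjusted p of 0.092, and 0.28, 0.59 and 1.62 within slides. It was called without WT late replicate 1 (1.08, adjusted p 0.048), and was 0.46 (adjusted p 0.18) without WT late replicate 3. Tbx18 differed by -1.39 ± 0.69 with all arrays and by -0.37 ± 0.32 without the spot of high background. Tbx4 differed by 2.06 ± 1.1 (adjusted p 0.28), with WT late replicate 1 not above background, and by 0.89 (adjusted p 0.65) without that array. Within slides it was 4.58, -1.46 and 3.08.

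The spread of the members between cultures depended on group and gene. In KO early arrays the SD was 0.022 for Tbx5, 0.047 for Tbx18, 0.11 for Tbx1, 0.12 for Tbx15 and 0.13 for Tbx3, below the median of 0.141 over all genes. It was above that median for Tbx4 (0.35), Tbx2 (0.36) and Tbx20 (0.61). In WT late arrays, the SD was 3 for Tbx20, 2.4 for Tbx4, 1.8 for Tbx18 (0.65 without the spot of high background), 1.1 for Tbx5, 1 for Tbx1, 0.65 for Tbx15 and 0.36 for Tbx3, against a median of 0.16 over all genes. For 4 of these, Tbx20, Tbx4, Tbx5 and Tbx1, at least 98.1% of genes had a smaller SD in that group, and for Tbx18 this held only with the spot of high background. Tbx2 lay at 0.027. The arrays that stood apart differed from gene to gene: replicate 1 was lowest for Tbx4, replicate 2 for Tbx5, and replicate 3 for Tbx15 and Tbx1 and highest for Tbx20. In KO late arrays the SD ran from 0.054 for Tbx15 to 0.95 for Tbx4, against a median of 0.0839. The Xist transcript, made in female cells, was above background on WT early replicate 1, WT late replicate 1 and KO late replicates 1 and 2 and not on the other 8 arrays, so its level varied within 3 of the 4 groups. In KO cultures it was above background on 0 of 3 early and 2 of 3 late arrays, so that the KO passages also differed in Xist level. Same-numbered KO early and KO late arrays are thus not shown to share an animal. The KO differences within slides do not follow a culture over time. With that level as a covariate, Tbx2 alone stayed called between KO passages.

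**Figure D4:**
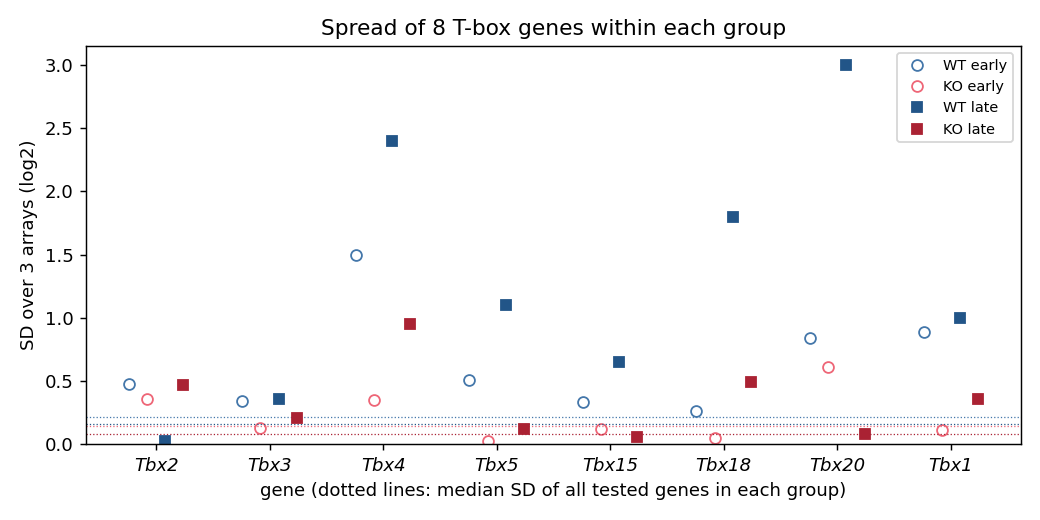
Standard deviation of each member over the 3 arrays of each group (vertical axis, log2 units), with dotted lines at the median SD of all tested genes in each group. In WT late arrays Tbx20, Tbx4 and Tbx18 reach 3, 2.4 and 1.8 (Tbx18 with its spot of high background) against a median of 0.16, and Tbx2 lies at 0.027.

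Among the members, Tbx3 correlated over the 12 arrays with Tbx2 at r = 0.92 and with Tbx5 at 0.90. Tbx15 ran opposite to Tbx3 at -0.81 and to Tbx2 at -0.76. Tbx4 correlated with Tbx2 at 0.45 and with Tbx5 at 0.30. All of these include the difference between passages that the 12 arrays share, and no test was made of them. In gene order, Tbx4 is the next gene after Tbx2, and Tbx5 lies 3 genes after Tbx3. Thus the neighbours Tbx3 and Tbx5 had alike patterns, and the neighbours Tbx2 and Tbx4 less so by this measure, which was not tested. Of the 12 nearest other genes with a kept probe around the members, 1 was called between KO and WT late arrays, where 7.83% of all genes were. It was Nt5e beside Tbx18, 1.92-fold higher in KO with an adjusted p of 0.018. Between passages of KO cultures 1 was called, where 18.9% of all genes were. It was Cypt4 beside Tbx20, 2.44-fold higher at late passage with an adjusted p of 0.032. Nothing about the neighbours is read from these counts. Cypt4 was above background on 1 of the 3 KO early arrays and passed the filter through KO late arrays alone, so that its difference from other groups was favoured by the filter.

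The genes whose levels ran most like each member over the 12 arrays were also listed. For Tbx2 they were Ripk3 and Tmem198b, each at r = 0.97. For Tbx3 they were Spsb4 (0.99), Ctbp2 (0.97) and Ogdh (0.96), and for Tbx5 Dpy19l3 (0.96), Stx18 (0.96) and Smim20 (0.95). For Tbx4 they were Meox2 (0.96), itself a homeobox gene of limb and somite mesenchyme, Vill (0.96) and Flrt1 (0.95). For Tbx15 they were Arhgap8 (0.98), Vsig10 (0.96) and Rnf220 (0.96), and for Tbx1 2610318N02Rik (0.91), Ndc80 (0.90) and Mamdc2 (0.90). For Tbx18 they were Col8a1 (0.93), Cited1 (0.93) and Tceal5 (0.91), with the spot of high background included, and for Tbx20, with 8 of 12 arrays below background, Napa (0.96) and Wbp2 (0.93).

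Beyond the members, 9 other T-box genes were on the array, and 3 of them, Mga, Tbx6 and Tbx10, passed the filter. In each of the 5 comparisons 0 of these 3 were called by limma, and the 1 unadjusted p under 0.05 was that of Mga between genotypes at early passage. T, Eomes, Tbr1, Tbx19, Tbx21 and Tbx22 did not pass, with at most 1 of 12 arrays above background for any of their probes.

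Of the 62 tested genes of the lists described next, 20 were called between passages in KO cultures, 13 between passages in WT cultures and 9 between genotypes at late passage, where 18.9%, 10.6% and 7.83% of all genes were. Of 9 heart partner factors tested, Isl1, Hand2 and Gata5 were lower and Srf higher at late passage in both genotypes. Hand2, a basic helix-loop-helix factor that is coexpressed with T-box genes in limb and heart, was 6.32-fold lower in KO cultures (-2.66 ± 0.38, adjusted p 0.002) and 3.25-fold lower in WT cultures (-1.70 ± 0.38, adjusted p 0.021). Gata5 was lower at late passage by 0.97 in KO and by 0.86 in WT cultures, with adjusted p of 0.0025 and 0.0073. Isl1, a marker of the hindlimb field and the second heart field, was above background on all 3 KO early, 2 of 3 WT early and 0 late arrays. It passed the filter through KO early arrays alone, so its difference between KO passages is no independent test, and it was at least 1.98-fold lower in WT late than in WT early arrays (adjusted p 9.8e-04).

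Of 17 limb bud factors tested, 6 were called between passages of KO cultures and 3 in WT cultures. Prrx1, a mesenchymal homeobox gene, was lower in both, at -1.50 ± 0.25 in KO (adjusted p 0.0037) and -1.02 ± 0.25 in WT (adjusted p 0.029), and Hand2 is in this list too. Sall1, among the 6, was above background on 0 late arrays and also passed the filter through KO early arrays alone, so nothing is read from its call. In KO cultures Grem1, a BMP antagonist of the limb bud, was 2.44-fold lower (adjusted p 0.02), Msx2 was lower and Twist1 was higher. Fgf10, the limb bud growth factor that Tbx4 and Tbx5 switch on, was 1.86-fold higher in WT late arrays (0.90 ± 0.19, adjusted p 0.019). Between the same WT passages Tbx4 differed by -3.37 and Tbx5 by -1.26, without a call (adjusted p 0.079 and 0.093). Between KO and WT late arrays Grem1 was 3.49-fold lower (adjusted p 0.012), Msx2 2.16-fold lower (adjusted p 0.02), Twist1 1.68-fold higher (adjusted p 0.014) and Meis2 1.64-fold higher (adjusted p 0.043).

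Signals known to act upstream of T-box genes, retinoic acid, BMP and hedgehog, were represented by 15 tested genes. Between passages of KO cultures Aldh1a2, the retinoic acid synthesising enzyme, was 14.4-fold lower (adjusted p 0.0013) with 1 of 3 late arrays above background, Rarb, a retinoic acid receptor, 3.06-fold lower (adjusted p 0.014) and Bmp2, a BMP ligand, 2.39-fold lower (adjusted p 0.034), while Bmpr1a, a BMP receptor, was 1.42-fold higher (adjusted p 0.0072) and Smad1 was higher. In WT cultures Gli1, a hedgehog target, was 4.55-fold lower (adjusted p 0.036) with 2 of 3 late arrays above background, and Rarg was 1.49-fold lower (adjusted p 0.03). Between KO and WT late arrays Aldh1a2 was 3.77-fold lower (adjusted p 0.044), Bmpr1a 1.37-fold higher (adjusted p 0.022) and Smad5 1.29-fold higher (adjusted p 0.048, and 0.071 with the replicate block).

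Genes that T-box factors are known to repress did not move as 1 group. Of 8 tested, 4 were called between passages of KO cultures: Ndrg1 was 1.82-fold higher (adjusted p 0.0085), and Cdkn1a, the cell cycle inhibitor p21, 1.7-fold lower (adjusted p 0.0057), Gja5, a connexin, 4.86-fold lower (adjusted p 0.02) and Gja1, another connexin, 1.5-fold lower (adjusted p 0.032). In WT cultures Nppa, an atrial hormone gene, was 3.05-fold higher (adjusted p 0.021), and Gja5, Gja1 and the collagen gene Col1a2 were lower, by 4.82-fold, 1.62-fold and 1.37-fold. Gja5 was above background on 2 of 3 late arrays of each genotype, and its other probe, above background on 3 of 12 arrays, was highest in WT late. Cdkn2a, named here because it is the best known target of Tbx2 and Tbx3 and not through the naming rule, was not called. Its level was 3.94, 3.79 and 3.72 in KO early and 3.28, 3.31 and 3.36 in KO late replicates. The difference was -0.50 ± 0.26 (adjusted p 0.2), in the comparison in which Tbx2 and Tbx3 were called lower. In WT cultures it differed by 0.29 ± 0.26 (adjusted p 0.5).

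Of 8 tested genes that T-box factors are known to activate, Gja5 was lower between passages of KO cultures, and Nppa and Fgf10 were higher and Gja5 lower in WT cultures. Of 12 cofactors, the 1 called was Wwtr1, the coactivator TAZ that binds Tbx5, 1.34-fold higher at late passage in KO (adjusted p 0.026) and 1.35-fold higher in WT cultures (adjusted p 0.036). Between KO and WT late arrays, Ndrg1 was 1.88-fold higher (adjusted p 0.015) and Cdkn1a 1.58-fold lower (adjusted p 0.022). At early passage, 0 genes of these lists were called between genotypes by limma, and 3 had an unadjusted p under 0.05. Of the 39 calls of named list genes, 11 held under every alternative: Isl1 and Gata5 in both genotypes, and Aldh1a2, Bmpr1a, Cdkn1a, Hand2, Ndrg1, Prrx1 and Srf between passages of KO cultures. The Isl1 call in KO cultures rests on the group through which it passed the filter. The other calls were lost under at least 1 alternative.

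Markers of other cell types moved with the same comparisons. Over all genes, 18.9% were called between passages of KO cultures, 9.95% higher and 9% lower. The share was 10.6% between passages of WT cultures and 7.83% between genotypes at late passage. All 13 fibroblast markers were tested, and their summed signal, in multiples of the 75th percentile, was 641 to 934 over the 12 arrays, with Twist1 higher and Thy1, Prrx1 and S100a4 lower between passages of KO cultures. Of 10 tested markers of epicardium and mesothelium, tissues in which Tbx18 is expressed, 8 were lower and 1, Scx, higher at late passage in KO cultures, and 1, Wt1, was lower in WT cultures. Tcf21, 1 of the 8, passed the filter through KO early arrays alone. With Scx their summed signal was 8.79 to 10.9 (WT) and 9.67 to 11.6 (KO) at early passage, and 9.62 to 14.8 (WT) and 15.8 to 17 (KO) at late passage. Without Scx it was 1.43 to 3.25 (WT) and 1.66 to 3.16 (KO) at early passage, and 1.7 to 1.93 (WT) and 0.591 to 0.621 (KO) at late passage. In KO late arrays 6 of the 13 markers, Wt1 and Tcf21 among them, were not above background on any array. Their part in the Tbx18 and Tbx20 values was not tested.

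Of 7 tested cardiomyocyte markers, 3 were lower and 1 higher between passages of KO cultures. In WT cultures Nppb and Nppa were called higher and Actc1 lower at late passage. Nppb, Tnnt2 and Myl2 were called lower in KO than in WT late arrays. Tnnt2 was also called for the difference of passage responses, where 0.0871% of all genes were. The sum of the list was 0.433 to 0.741 (WT) and 0.556 to 0.692 (KO) at early passage, and 0.826 to 0.982 (WT) and 0.26 to 0.304 (KO) at late passage. Myl7, Ryr2 and Pln were not above background in any group. On WT late replicate 3, where Tbx20 was high, that sum was 0.844, within the range of its group. The 14 macrophage markers were all above background, and their sum was 45 to 115 (WT) and 54.7 to 70.3 (KO) at early passage, and 85.1 to 145 (WT) and 34 to 75.8 (KO) at late passage. Of these 14, Cd68 and Lyz2 were called lower in KO than in WT late arrays. Lyz2 was called higher at late passage in WT cultures, and 0 were called between passages of KO cultures by limma. Of 7 tested cartilage markers, 3 were higher at late passage in KO cultures and 5 were higher in KO than in WT late arrays, in the groups where Tbx15 was highest. Of all genes, 18.9% and 7.83% were called in these comparisons, in either direction. The sums were 24.7 to 82.4 (WT) and 32.3 to 45.5 (KO) at early passage, and 29.5 to 34.6 (WT) and 36.6 to 49.2 (KO) at late passage. The part of these cells in the T-box values was not tested.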

How the data were processed

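RNA of 12 MEF cultures was hybridised to one-colour Agilent arrays, from 100 ng of total RNA labelled with Cy3 per the labels' protocols. The authors deposited scanner files with the intensity of each spot, background-subtracted and detrended per the file headers, by Feature Extraction 11.5.1.1 (10.7.3.1 per the submitters' processing notes). They also deposited a table of log2 values, centred by gene, with column medians from -0.0426 to 0.0233, which matched the centred scanner values in direction and scale (r 0.998 to 0.999 per array); the centring rule was not given. It was used as an alternative.

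Outlier spots were left out, spots of a probe averaged, log2 taken and the 75th percentile of all spots of an array subtracted. A probe was kept if the software called it well above background in every array of some group, and the probe of highest mean stood for a gene. Of 28290 probes with a RefSeq accession, 27969 matched a symbol (GRCm38.p6 table). limma 3.58.1 in R 4.3.3 fitted 4 group means to all 12 arrays (8 residual and 2.22 prior degrees of freedom), with 5 contrasts, adjusted over 19507 genes; the scripts were tested on simulated data. An exact permutation of 3 against 3 arrays cannot give a two-sided p below 0.1. For a gene above background on 0 arrays of a group, folds are bounds, taken against the dimmest probe that was detected on each of them. The number of arrays limits the precision.

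The members and gene lists were chosen with earlier results of these data known. Named beside the members were, per list and comparison, up to 4 called genes of largest difference, the nearest neighbours with a kept probe, and the 3 genes of highest correlation; genes added without values complete a count. A few genes that this rule names are not reported here. Lists covered other T-box genes, heart and limb factors, upstream signals, repressed and activated targets and cofactors. Marker lists not described in the report were endothelial (0 of 2 tested called between passages in KO), epithelial (2 of 4 lower), neural and glial (1 higher and 1 lower of 5) and skeletal muscle (1 of 2 lower). Of all genes, 18.9% were called in that comparison.

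Same-numbered WT early and WT late arrays deviated together (correlations 0.279, 0.244 and 0.141). Each WT early array was best matched by the WT late array of its number, and no other pair of groups showed this for all 3 numbers. Same-numbered WT early and KO early arrays also correlated above 0, at 0.059, 0.056 and 0.156. The pairing in the WT passage comparison is thus taken from the data. Replicate number is also slide in all 4 groups. Same-numbered KO early and KO late arrays correlated at 0.03, 0.079 and -0.092, and WT late and KO late arrays at -0.053, 0.089 and 0.032. The remaining pairs of groups ran from -0.051 to 0.152. What part a shared slide or a shared animal had in the WT correlations was not tested. Alternatives covered background, scaling, filters, arrays left out, a replicate block, an Xist covariate, probe choice and the deposited table.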

Additional observations from a re-analysis of the deposited data

How the results depend on the processing

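Of 857 values of the 40 member differences under alternatives, 802 kept their direction and side of the threshold, 14 lost and 18 gained a call and 23 changed sign, in 10 results, none of them called in the main analysis. Part of the 802 was fixed in advance. Leaving out an array of a group not compared cannot change a difference, and each member had a single kept probe, so that the probe choice changed none. Most differences were also uncalled at the start, so these counts do not measure stability. The replicate block gave each replicate number an effect shared by all 4 groups. It changed no call of a member: 0, 0, 0, 3 and 0 members were called in the 5 comparisons with and without it. No fit paired WT early with WT late arrays alone, so what such a pairing would change was not tested. Between passages of KO cultures the count of 3, beside 18.9% of all genes, became 5 with normexp (adding Tbx5 and Tbx18; 14.7% of all genes), 7 on the arrays of the compared groups alone (27.7%; Tbx20, below background there, is among them), and 1 (Tbx2) without the filter on dim probes (7.25%) or with the Xist covariate (12.8%). It was 1 to 4 when an array was left out (9.12% to 24.3%), with 1 (Tbx2) without KO early replicate 1 or 2 or KO late replicate 1 or 2 (9.12% to 10.6%). In WT cultures the count of 0, beside 10.6%, became 2 with normexp (Tbx5 and Tbx18; 10.1%), 1 with the Xist covariate (Tbx4; 10.4%) and 0 to 3 when an array was left out: 2 without WT early replicate 1 (Tbx2 and Tbx3; 12.6%), 1 without WT late replicate 2 (Tbx4; 6.31%) and 3 without WT late replicate 3 (Tbx5, Tbx15 and Tbx20; 8.1%), where Tbx20 passed the filter through WT early. Between genotypes at late passage it was 0 to 1, with 1 (Tbx15) without WT late replicate 1 (5.91% of all genes). The cause of these changes was not tested.

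Changes of sign were as follows. Between genotypes at early passage, Tbx2 was 0.01, 0.12 and 0.10 without WT early replicate 2, WT early replicate 3 and KO early replicate 3, and without WT early replicate 3 Tbx3 was 0.04 and Tbx5 0.23. Between genotypes at late passage, Tbx5 was -0.02 with normexp and -0.55 without WT late replicate 2, and Tbx1 -0.17 with the Xist covariate and -0.42 without WT late replicate 3. Between WT passages, Tbx18 was -0.66 with normexp (adjusted p 0.021), -0.93 without spots of outlying background, 0.00 after quantile normalization, -0.01 without WT early replicate 1 and -0.93 without WT late replicate 1. Tbx20 was 0.01 with normexp, 0.06 without WT early replicate 3, 0.20 without WT late replicate 1 and 0.67 without WT late replicate 2. Between KO passages, Tbx1 was -0.42 with the Xist covariate and -0.04 without KO late replicate 2. For the difference of passage responses, Tbx5 was -0.17 without WT early replicate 3 and -0.50 without WT late replicate 2, and Tbx20 0.89 without WT late replicate 3.
Over all arrays left out in turn, these results ran, between genotypes, from -0.34 to 0.12 for Tbx2, -0.30 to 0.04 for Tbx3 and -0.26 to 0.23 for Tbx5 at early passage, and -0.42 to 0.53 for Tbx1 and -0.55 to 0.47 for Tbx5 at late passage. Between passages they ran from -0.93 to 0.82 for Tbx18 and -2.10 to 0.67 for Tbx20 in WT and -0.04 to 0.32 for Tbx1 in KO cultures, and for the difference of responses from -0.50 to 0.51 for Tbx5 and -1.88 to 0.89 for Tbx20.

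The planned normexp fit could not be used, since the files hold no mean spot signal and the default fit put the background mean between -1240 and -6.84. Median signals and 153 negative-control spots took its place, chosen after seeing the data, as was leaving out spots of outlying background. Quantile normalization moved the split of all genes called between genotypes at late passage from 675 higher of 1528 to 1002 higher of 1790. Signal over background limits Tbx20, on 4 of 12 arrays above background, and Tbx4 on WT late replicate 1.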
